A study of Homo sapiens with 6 samples.

Results

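MiaPaCa2 is an established human cell line of pancreatic ductal adenocarcinoma (PDAC), and here it carried CasRx, a Cas13d enzyme that a guide RNA directs to an RNA and that then cuts that RNA. The comparison set 1 library labelled as the third PPP2R1A knockdown sample (the library labelled knockdown 3) against 2 libraries of control cells (control 1 and control 2), that is 3 of the 6 libraries of the study, over all genes of the count table. Control cells carried CasRx with no guide RNA. Cells of the knockdown side also carried CasRx, together with a guide against PPP2R1A from a lentiviral vector with a red fluorescent reporter and puromycin resistance, so vector, guide and selection stood on that side alone. By genotype the labels give WT for controls and KD for the knockdown side. The remaining libraries, control 3, knockdown 1 and knockdown 2, are given beside the results as reference. The study sampled the cells over 3 weeks, and the week of a library was read from its number because the labels do not state it. On that reading control 1, control 2 and the library labelled knockdown 3 came from weeks 1, 2 and 3, so week and guide cannot be told apart in this comparison. The study left this knockdown sample out of its own comparison for its weak knockdown. The counts summed to 28499214 in control 1, 29156486 in control 2 and 42743897 in the library labelled knockdown 3. The labels do not say whether libraries of a group came from separate cultures, so each p-value covers the spread between libraries only, which may be technical.

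Protein phosphatase 2A (PP2A) removes phosphate groups from serine and threonine of many proteins and counters kinases such as ERK. It is built on a scaffold subunit, PPP2R1A or its relative PPP2R1B, which holds a catalytic subunit, PPP2CA or PPP2CB, and a regulatory subunit that selects the targets. Within the Integrator complex PP2A also opposes the kinases that release paused RNA polymerase II. The comparison asks what a cell population close to the control cells shows when PPP2R1A mRNA is only slightly lower.

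The guide addresses the end of the PPP2R1A transcript. Its spacer and the site it pairs with are shown because they identify the mRNA that the guide addresses, and the capitals mark the bases that pair, each written 5′ to 3′.
guide spacer: GAATAAAATAAAAACGGCACAGT
target in PPP2R1A: ACTGTGCCGTTTTTATTTTATTC
The site of 23 bases lies on the plus strand at chr19:52226351-52226373 (GRCh38, GENCODE release 29), in the 3′ UTR within exon 15 of 15. Among the transcripts of that annotation no gene but PPP2R1A held the site with up to 3 mismatches.

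PPP2R1A mRNA was close to the control level in the library labelled knockdown 3. It had 16771 counts in control 1, 17310 in control 2 and 23238 in the library labelled knockdown 3. Scaled with the TMM factors of edgeR to counts per 1000000 (CPM), these were 589.9, 625 and 546 CPM, against 608 ± 25.01 (SD, n = 2) for the control pair. The value thus lay below both controls, and its distance from the nearer control was -0.11 on the log2 scale, where the controls themselves differed by 0.08. Knockdown 1 and knockdown 2 both stood at 142 CPM, and control 3 at 647 CPM. edgeR's quasi-likelihood test gave a log2 fold change of -0.15 (standard error 0.0996, adjusted p = 1). In bulk RNA, fewer cells that had lost the mRNA and a smaller loss in each cell cannot be told apart.

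**Figure D1:**
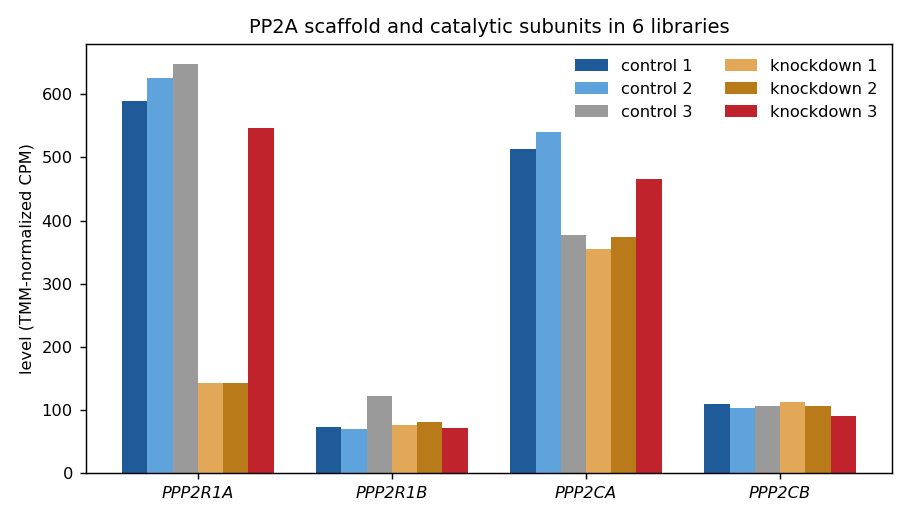
Level of the scaffold subunits PPP2R1A and PPP2R1B and the catalytic subunits PPP2CA and PPP2CB in TMM-normalized CPM (vertical axis), 1 bar for each of the 6 libraries. PPP2R1A stands at 546 CPM in the library labelled knockdown 3, beside 589.9 and 625 CPM in control 1 and control 2 and 142 CPM in knockdown 1 and knockdown 2.

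The other subunits of PP2A also stayed near the control pair. A gene was taken as outside both controls when its log2(CPM + 0.5) was at least 1 (2-fold) above the higher or below the lower of control 1 and control 2, and over all 13478 genes with at least 1 CPM in 1 of the 3 libraries 294 met this (2.18%). None of the 4 scaffold and catalytic subunits did, nor any of 14 regulatory subunits or 20 regulators and inhibitors. PPP2CA, the main catalytic subunit, was at 513 and 541 CPM in the controls and 466 CPM in the library labelled knockdown 3. PPP2CB was at 109.7 and 104 against 90.7 CPM, and PPP2R1B at 72.1 and 69.0 against 71.1 CPM. PPP2CA and PPP2CB, like PPP2R1A, were thus below both controls, while PPP2R1B lay between them. The medians of the 4, 14 and 20 genes were -0.17, 0.07 and 0.03 on the log2 scale.

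The largest differences in PP2A were at low or moderate levels. PABIR2, a member of a family of PP2A inhibitors, stood at 27.3 and 23.2 CPM in the controls and 45.3 CPM in the library labelled knockdown 3, a log2 difference of 0.84 from their mean, with 26.2, 37.3 and 67.9 CPM in control 3, knockdown 1 and knockdown 2. PPP2R3C, a regulatory subunit, was at 10.8 and 6.97 against 5.50 CPM (-0.61), and ANP32A, an inhibitor of PP2A, at 229 and 203 against 159.9 CPM (-0.43). PPP2R3B, another regulatory subunit, was at 14.2 and 13.4 against 19.2 CPM (0.46). These 4 genes lay beyond the range of the control pair, and the adjusted p from edgeR was 1 for PABIR2 and PPP2R1A alike. INTS8 and INTS6, which hold PP2A in Integrator, also differed little, with INTS8 at 65.2 and 66.3 against 66.7 CPM and INTS6 at 34.3 and 31.8 against 35.2 CPM.

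Over the whole transcriptome, the library labelled knockdown 3 was no farther from either control, by the number of genes 2-fold apart, than the controls were from each other. Of 14349 genes with at least 1 CPM in any of the 6 libraries, 821 were at least 2-fold apart between it and control 1 and 892 between it and control 2. Control 1 and control 2 differed by that much at 974 genes, and knockdown 1 and knockdown 2 at 774. The other 11 pairs of libraries had 2181 to 3166 such genes. Among these, the library labelled knockdown 3 was 2-fold apart from knockdown 1 at 2299 genes and from knockdown 2 at 2309.

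**Figure D2:**
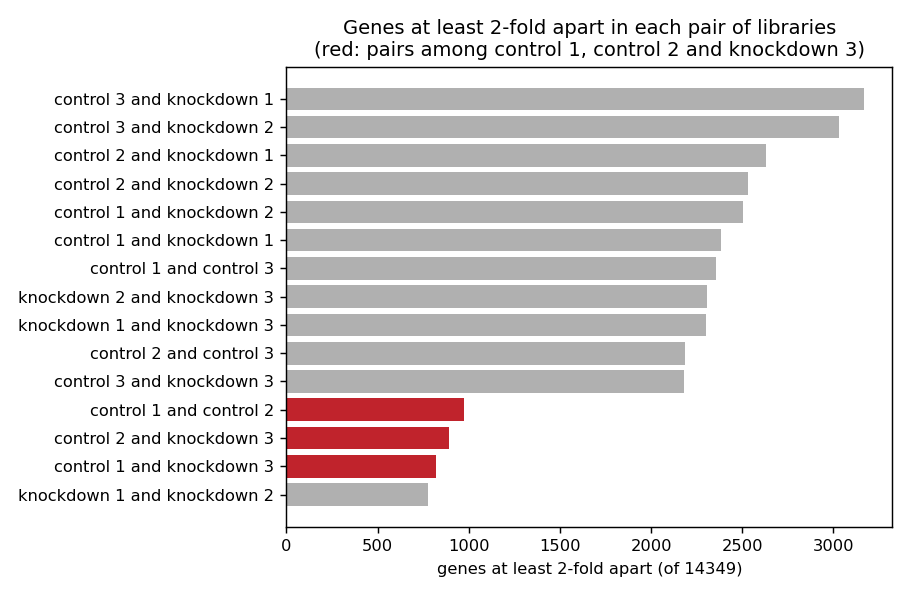
Number of genes at least 2-fold apart (horizontal axis, of 14349 genes) for each of the 15 pairs of libraries, where red bars are the pairs within control 1, control 2 and the library labelled knockdown 3. The red bars reach 821 to 974 genes and knockdown 1 against knockdown 2 has 774, while the remaining pairs have 2181 to 3166.

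The same closeness held along the chromosomes. The median log2 difference from the mean of control 1 and control 2 lay between -0.03 and 0.05 on each of 23 chromosomes for the library labelled knockdown 3, and control 2 minus control 1 had medians of -0.04 to 0.07. In control 3 the medians ran from -0.37 to 0.53, and in knockdown 1 and knockdown 2 from -0.46 to 0.12.

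Genes that separate knockdown 1 and knockdown 2 from the controls were mostly at the control level. The list of 20 was picked earlier for its large changes in those libraries, so the levels of knockdown 1 and knockdown 2 are no finding here. KITLG, the ligand of the receptor KIT, stood at 128 and 115 CPM in knockdown 1 and knockdown 2 and at 0 counts in control 1, control 2 and the library labelled knockdown 3. NR5A2, a nuclear receptor found in acinar cells, was at 123 and 72.9 CPM there and at 0 counts in the library labelled knockdown 3, and GRHL3, MT1G, CSGALNACT1, MYBPC2 and LRP1B were at 0 counts in it too. For a gene at 0 counts the floor of 3 counts over this library is 0.0705 CPM. TM4SF4 had 3 counts and FLT1 had 2 in it.

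The genes of this list that knockdown 1 and knockdown 2 lacked were all present. COL1A2, a chain of type I collagen, was at 67.7 and 72.1 CPM in the controls and 79.6 CPM in the library labelled knockdown 3, against 0 counts in knockdown 1 and knockdown 2. GSTM3, a glutathione S-transferase, was at 37.5 and 41.0 against 37.3 CPM, and NTSR1, the neurotensin receptor, at 48.9 and 38.2 against 33.6 CPM. The other members, COL6A3, RNF182, CARD16, MID1IP1, CLEC2B, PPP1R14A and ZFP3, lay between 5.31 and 20.4 CPM in it. COL6A3 was the lowest of these, with a log2 difference of -1.17 from the controls' mean, but was not 2-fold below both. LIF was the only gene of the 20 outside both controls and is described with those genes.

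**Figure D3:**
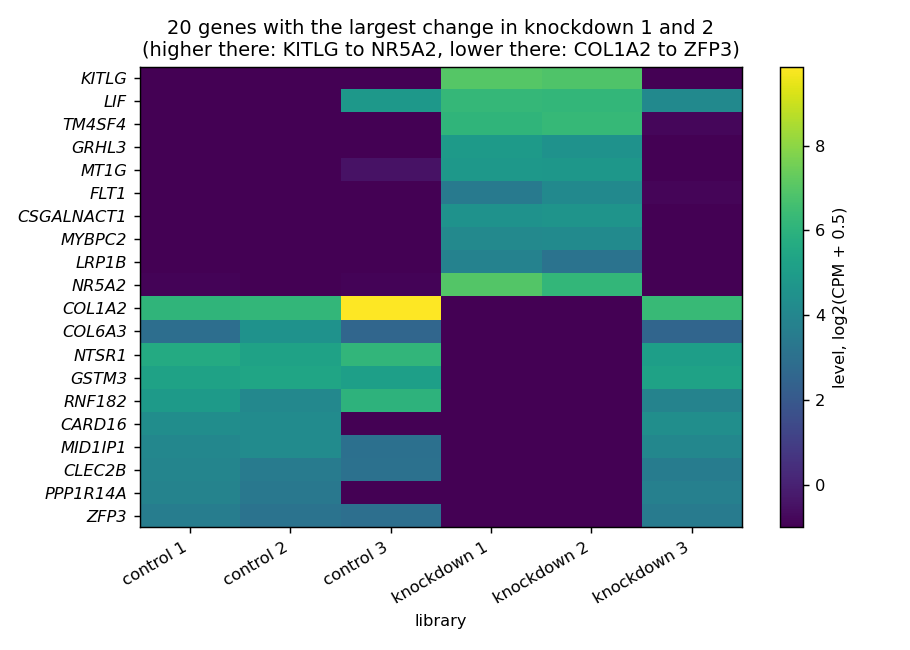
Level of 20 genes with the largest change in knockdown 1 and knockdown 2, as log2(CPM + 0.5) in color, with 1 row a gene and 1 column a library. Most of the column of the library labelled knockdown 3 stays close to those of control 1 and control 2. COL6A3, at 5.31 CPM, lies below both, with a log2 difference of -1.17 from their mean. LIF has 17.2 CPM in that library and 0 counts in both controls.

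Of the 294 genes outside both controls, 129 were higher (0.957% of all genes tested) and 165 lower (1.22%). At least 4-fold outside were 29 of the higher and 45 of the lower genes. By the same rule against the same control pair, which these comparisons share, 9.98% of genes were outside in control 3, 11.7% in knockdown 1 and 11.9% in knockdown 2. Control 1 and control 2 were at least 2-fold apart at 957 of the 13478 genes (7.1%), and 53 of the 294 were among these. With only 1 library on the knockdown side no permutation test can reach 0.05, so the 294 are a description. The share outside was 2.43% among genes with a mean under 5 CPM, 3.08% from 5 to 20, 1.81% from 20 to 100 and 1.38% from 100 CPM upward.

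Some of these genes adjoin a gene that differed the other way. The count table was assembled with StringTie, and where genes overlap or adjoin, reads can be given to either. Of 293 of the genes with a place in RefSeq, 86 stayed outside both controls when their counts were summed with those of all genes within 20 kb (a neighbour sum), 33 of 128 higher and 53 of 165 lower. Differences of genes and of such sums are given below on the log2 scale from the mean of control 1 and control 2. For 21 of the 293 (7.17%) the neighbour within this distance with the largest opposite change in CPM was itself outside both controls. The same held for 223 of all 13318 tested genes with a place (1.67%). A far more abundant neighbour can also hide a change in such a sum. The part of read assignment in these values was not tested.

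The gene farthest above the controls was ADGRL1, a receptor of the adhesion family. It had 8 and 9 counts in control 1 and control 2 against 2151 (50.5 CPM) in the library labelled knockdown 3, which is 167-fold higher (95% interval of the counts 104 to 287). Intervals and floors cover counting error only. The other libraries were also high, with 2621 counts in control 3 and 957 and 1068 in knockdown 1 and knockdown 2, so control 1 and control 2 stood apart from the other 4. It had the smallest adjusted p of edgeR's test (0.0726, log2 fold change 7.36, standard error 0.208), and its difference was 5.99 alone and 0.52 with 3 neighbours summed.

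LIF, an interleukin-6-type cytokine, stayed far above the controls with its neighbours included. It had 0 counts in both controls and 733 in the library labelled knockdown 3, at least 322-fold higher against a floor of 3 counts over the pair. Control 3 had 880, and knockdown 1 and knockdown 2 had 2701 and 3415. The difference was 5.15 alone and 3.49 with neighbours summed, and edgeR's adjusted p was 0.112. NUP210, a protein of the nuclear pore membrane, had 25 and 10 counts in the control pair against 1105, 41.6-fold higher (95% counting interval 29.7 to 60.1), and no gene lay within 20 kb. Control 3, knockdown 1 and knockdown 2 had 677, 911 and 474 counts.

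ITPR3 and ARHGEF19 were higher in the library labelled knockdown 3 than in any other library. ITPR3, a calcium release channel of the endoplasmic reticulum, was at 14.9 and 26.6 CPM in the controls and 329.6 CPM, 15.97-fold higher (95% counting interval 15.04 to 16.97), while control 3, knockdown 1 and knockdown 2 ranged from 38.8 to 73.2 CPM. Its neighbour UQCC2, an assembly factor of respiratory complex III, was at 50.1 and 39.2 against 15.9 CPM, and the neighbour sum still differed by 2.32. ARHGEF19 was at 3.17 and 4.73 against 55.5 CPM, 14.1-fold higher (95% counting interval 12.3 to 16.3), and the other 3 libraries were at 0.688 to 1.21 CPM. Its neighbour sum differed by 3.04. The adjusted p from edgeR was 0.392 for ITPR3 and 0.302 for ARHGEF19.

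For most of the other genes farthest above, the sum with neighbours or over the same locus did not stay outside both controls. ARL2-SNX15, a readthrough gene, had 0 counts in both controls and 898 in the library labelled knockdown 3, while ARL2 in the same locus was at 45.6 and 51.2 against 21.8 CPM, and the sum over their locus differed by -0.43. HNRNPUL2-BSCL2, also a readthrough gene, had 0 against 782 counts, and its locus by 0.11. SNHG31, a host of small nucleolar RNAs, was at 1.23 and 1.81 against 22.4 CPM, and the ribosomal pseudogene RPL10P6 of the same locus at 22.9 and 23.7 against 1.22 CPM. The sum over that locus differed by -0.07. DUSP12, a dual-specificity phosphatase, had 10 and 9 counts in control 1 and control 2 against 497, with 714, 8 and 605 in control 3, knockdown 1 and knockdown 2. NELFCD, a subunit of the pausing factor NELF, had 0 in both controls against 224, and BICRAL, a subunit of a SWI/SNF complex, 7 and 6 against 327. Control 3, knockdown 1 and knockdown 2 had 325, 143 and 252 counts of NELFCD, 128, 284 and 234 of BICRAL and 674, 900 and 607 of SNHG31, so for these genes control 1 and control 2 stood apart from the other 4 libraries. The neighbour sums of DUSP12, NELFCD and BICRAL differed by 0.17, 0.12 and 0.27. RPL26P30, a ribosomal pseudogene, had 1 count in each control and 222 in the library labelled knockdown 3, and its neighbour sum differed by 3.17. Pseudogenes share sequence with their parent genes, so these counts are uncertain.

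**Figure D4:**
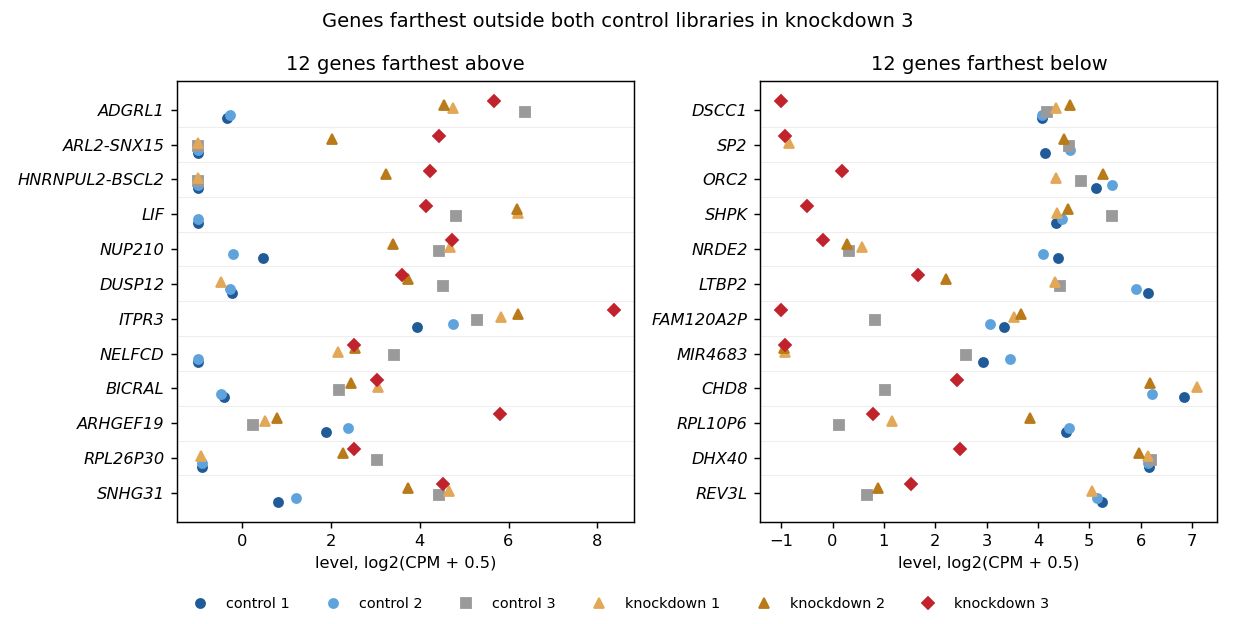
Level, as log2(CPM + 0.5) on the horizontal axis, of the 12 genes farthest above (left) and the 12 farthest below (right) both controls in the library labelled knockdown 3, with 1 point a library. ITPR3 and ARHGEF19 on the left and DSCC1, ORC2, SHPK and DHX40 on the right set the red point of the library labelled knockdown 3 apart from all 5 other libraries.

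Among the genes farthest below, DSCC1, ORC2, SHPK and DHX40 were low in the library labelled knockdown 3 alone. DSCC1, which acts in sister chromatid cohesion, had 465 and 455 counts in control 1 and control 2 and none in that library, at least 233-fold lower, against 561 to 1142 in the other libraries. ORC2, a subunit of the origin recognition complex, had 987 and 1189 against 27 counts, 61.1-fold lower (95% counting interval 41.9 to 93.0). SHPK, sedoheptulokinase, had 565 and 600 against 9, and DHX40, an RNA helicase, 2016 and 1934 against 218. The adjusted p from edgeR was 0.102 for DSCC1, SHPK and DHX40 and 0.392 for ORC2. The neighbour sums differed by -0.11 for DSCC1, -1.01 for ORC2, -1.25 for SHPK and -0.72 for DHX40, none of which stayed outside both controls. For DSCC1 the neighbour TAF2, a subunit of TFIID, was at 56.8 and 59.6 against 68.9 CPM.

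Other genes were low in further libraries as well. NRDE2, a factor of nuclear RNA surveillance, had 582 and 460 counts in the control pair against 16, 49.4-fold lower (95% counting interval 30.3 to 86.8), and 24 to 36 in control 3, knockdown 1 and knockdown 2. Its overlapping neighbour PSMC1, an ATPase of the proteasome, was at 168 and 155 against 41.5 CPM, and both together differed by -2.09. REV3L, the catalytic subunit of DNA polymerase zeta, had 1066 and 965 against 102 counts, with 35 in control 3, 63 in knockdown 2 and 1184 in knockdown 1, and its neighbour sum differed by -2.61. LTBP2, a latent TGF-beta binding protein of the extracellular matrix, had 2006 and 1659 against 113, with 193 to 716 in the other libraries. Its neighbour sum differed by -0.36, with the abundant neighbour NPC2 at 72.8 and 43.5 against 87.7 CPM.

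SP2, a transcription factor of the Sp family, had 484 and 668 counts in control 1 and control 2 against 1, and also only 2 in knockdown 1, and its neighbour sum differed by -1.15. CHD8, a chromatin remodeller, had 3264 and 2048 against 206, with 49 in control 3, and its sum with 6 neighbours was on the other side, at 0.26. FAM120A2P, a pseudogene, had 273 and 218 against 0 counts, at least 124-fold lower, with a neighbour sum of -0.31. These genes thus did not set the library labelled knockdown 3 apart from all others, except FAM120A2P, which had 41 to 579 counts elsewhere.

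MIR4683, a microRNA gene, was low in every library labelled knockdown. It had 202 and 288 counts in control 1 and control 2, 178 in control 3 and 1 in each of the 3 libraries labelled knockdown, and edgeR's adjusted p for the library labelled knockdown 3 was 0.254. The mature sequence (RefSeq, GRCh38.p14, minus strand, chr10:35641181-35641203) is printed to identify the gene, whose counts cover the gene and not this mature arm, with the seed (bases 2 to 8) in capitals.
hsa-miR-4683: uGGAGAUCcagugcucgcccgau
The gene shares a locus with FZD8, a WNT receptor, which was at 63.5 and 57.0 CPM in the controls and 85.8 CPM in the library labelled knockdown 3. Summed over the locus the difference was on the other side, at 0.31. Reads at this place need not come from the mature microRNA.

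The direction differed between the level classes, which rest on a mean that includes the library labelled knockdown 3. Because both controls enter this mean, a fall can be placed in a higher class than a rise between the same levels. That part of the pattern was not separated. From the lowest of the 4 level classes above to the highest, 48, 52, 26 and 3 genes were higher and 25, 48, 64 and 28 lower. Where a gene outside both controls averaged 100 CPM or more over the 3 libraries, it was lower for 28 genes and higher for 3, and 16 of the 28 and 1 of the 3 stayed outside with neighbours summed. The genes named in this paragraph and the next were chosen after their values were seen. Not all of the 28 were lowest in the library labelled knockdown 3. ADCY3 was at 57.4 CPM in it and 34.4 CPM in control 3, and RAB5C at 97.2 CPM and 7.66 CPM. KIF1C, a kinesin motor, was at 386 and 395 CPM in the controls and 114 CPM in the library labelled knockdown 3, 3.42-fold lower (95% counting interval 3.32 to 3.53), and at 312 to 446 CPM in the other 3. TIMP2, an inhibitor of matrix metalloproteinases, was at 623 and 522 against 181 CPM, with 492 to 887 CPM in the other 3. AP3D1, a subunit of the AP-3 sorting complex, was at 371 and 358 against 160.4 CPM, with 339 to 373 CPM in the other 3. For KIF1C, TIMP2 and AP3D1 the library labelled knockdown 3 was the lowest of the 6, and the adjusted p from edgeR was 0.434 for KIF1C, 0.437 for TIMP2 and 0.342 for AP3D1.

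MAPRE1, which binds growing microtubule ends, stood at 269 and 261 CPM in the controls and 95.6 CPM in the library labelled knockdown 3. MLLT1, a reader of acetylated histones in the super elongation complex, was at 253 and 215 against 89.4 CPM. Both MAPRE1 and MLLT1 were lowest of all libraries in it. HSPA9, the chaperone of the mitochondrial matrix, was at 1362 and 1386 against 594 CPM, and its neighbour sum differed by -0.86. The 3 abundant genes above both controls were ITPR3, which reached that mean only through the library labelled knockdown 3, the glycolytic enzyme TPI1 and TRRAP, a scaffold of histone acetyltransferase complexes, at 119 and 97.3 against 281 CPM. TRRAP was at 292 to 366 CPM and TPI1 at 756 to 1325 CPM in control 3, knockdown 1 and knockdown 2, so only ITPR3 of these was highest in the library labelled knockdown 3.

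Most interferon-stimulated genes lay below the controls. Of 25 such genes at 1 CPM or more, 5 were outside both controls on the lower side and none on the higher, beside 1.22% and 0.957% of all genes. By any amount, 18 were below both controls (72.0%), where 30.5% of all genes were. The median log2 difference was -0.33, beside 0.01 over all genes, and 10 of the 25 had an unadjusted p under 0.05 in edgeR, where 4.61% of all 16967 genes tested had. None was called by edgeR. OASL, a member of the oligoadenylate synthetase family, was at 14.6 and 15.2 CPM in the controls and 5.57 CPM in the library labelled knockdown 3 (log2 difference -1.35). ISG15, a ubiquitin-like modifier, was at 11.6 and 12.97 against 4.98 CPM (-1.22), OAS2, an oligoadenylate synthetase, at 2.36 and 2.85 against 0.493 CPM (-1.64), and RIGI, a sensor of viral RNA, at 15.3 and 16.04 against 6.25 CPM (-1.26).

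IFIH1, the sensor MDA5, was at 4.64 and 5.85 CPM against 1.88 CPM and stayed outside with neighbours summed. OASL and OAS2 did not, with neighbour sums of -0.27 and -0.71, and those of ISG15 and RIGI were on the other side, at 0.23 and 0.37, where RIGI adjoins TOPORS at 9.74 CPM, 0 and 31.7 CPM in control 1, control 2 and the library labelled knockdown 3. ISG15 was low in this library alone, with 10.7 to 13.3 CPM in the other 5, while OASL was at 6.97 to 7.54 CPM in control 3, knockdown 1 and knockdown 2. Short of the 2-fold distance, IFIT1 was at 38.2 and 39.8 against 19.0 CPM and IFIT3, of the same family, at 18.5 and 26.1 against 10.3 CPM. The other 3 libraries were below the control pair too, at 13.4 to 16.4 CPM for IFIT1 and 7.22 to 8.50 CPM for IFIT3. STAT2, which carries the interferon signal, differed by 0.20 from the controls' mean. MX2, an antiviral GTPase, was higher, at 7.14 and 11.8 against 19.2 CPM. The median of the list was -0.99 in control 3, 0.15 in knockdown 1 and 0.11 in knockdown 2 against the same control pair.

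mRNAs encoded by mitochondrial DNA were also lower. All 13 were below the mean of the controls and 12 were below both (92.3%), where 30.5% of all genes were. The median was -0.40, the range was -0.67 to -0.17, and none was 2-fold outside. Of the 13, 6 had an unadjusted p under 0.05 in edgeR, where 4.61% of all 16967 genes tested had. MT-ND2, of complex I, was at 2072 and 2473 CPM in the controls and 1418 CPM in the library labelled knockdown 3. MT-CO2, of complex IV, was at 1814 and 1946 against 1421 CPM, and MT-CYB, of complex III, at 524 and 680.4 against 443 CPM. MT-ND4, which overlaps MT-ND4L, was the gene not below both, at 10.1 and 51.3 against 16.5 CPM. Summed over the list, the level was 14389 and 16552 CPM in control 1 and control 2 and 11467 CPM in the library labelled knockdown 3, the lowest of the 6 libraries, with 13985 CPM in control 3 and 17116 and 18111 CPM in knockdown 1 and knockdown 2. Whether RNA quality differed between the libraries was not tested.

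**Figure D5:**
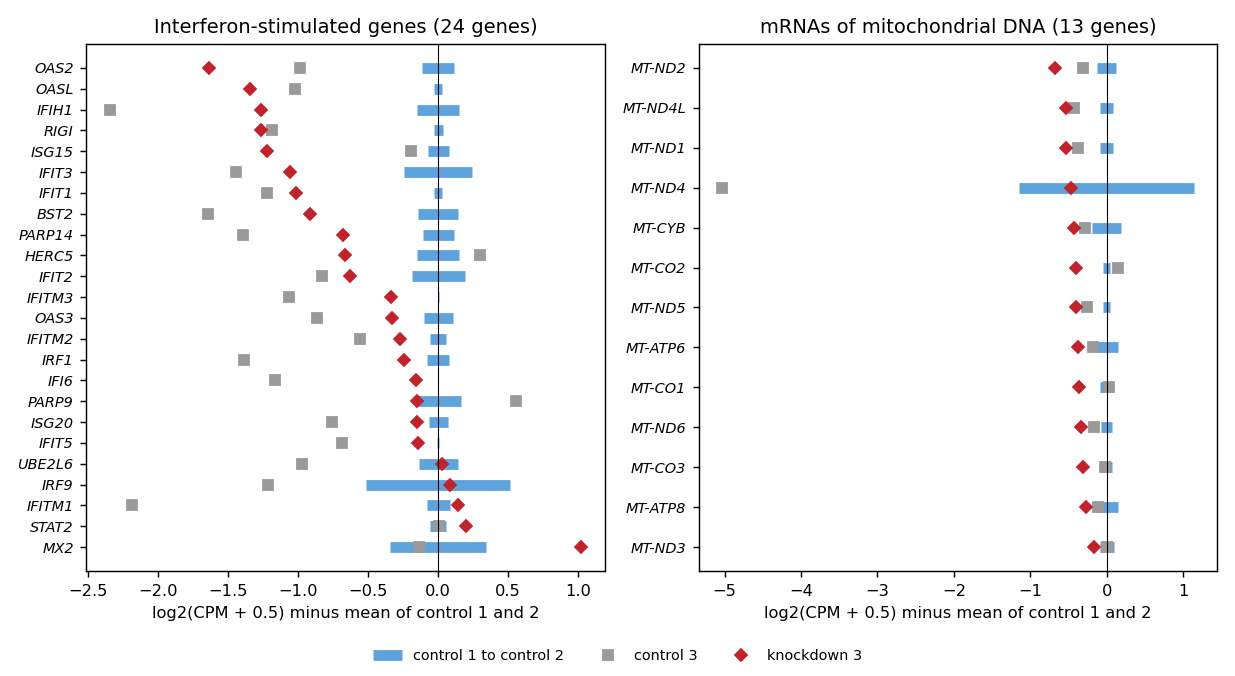
Difference in log2(CPM + 0.5) from the mean of control 1 and control 2 (horizontal axis) for 24 of the 25 interferon-stimulated genes (left) and 13 mRNAs of mitochondrial DNA (right), where the blue bar spans control 1 to control 2, the red point is the library labelled knockdown 3 and the grey square is control 3. On the left 18 red points lie below both controls, with a median of -0.33 over all 25 genes, and on the right 12 do, with a median of -0.40.

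Cytosolic ribosomal proteins lay slightly above the controls. Of 78 genes, 46 were above both controls by any amount (59.0%, beside 31.2% of all genes) and 10 below both, but the median was only 0.05 on the log2 scale and none was 2-fold outside. The controls themselves differed by nearly as much, with a median of 0.04 for control 2 minus control 1. Against the control pair the median was 0.02 in control 3, -0.26 in knockdown 1 and -0.20 in knockdown 2. RPL14, of the large subunit, was farthest at 343 and 388 against 591 CPM, and RPL19 lay on the other side at 1530 and 1661 against 1251 CPM. Replication-dependent histones had 20 of 36 genes above both controls and a median of 0.16. Among them H1-2, a linker histone, was at 43.4 and 47.3 CPM against 81.8 CPM in the library labelled knockdown 3. Heat shock genes lay below, with 10 of 13 below both controls (76.9%, beside 30.5% of all genes) and a median of -0.10. The other libraries lay farther below the same control pair. Their medians were -0.33 in control 3, -0.49 in knockdown 1 and -0.44 in knockdown 2, so this fall was not particular to the library labelled knockdown 3. The chaperone HSPA8 was at 3441 and 3544 against 2780.5 CPM.

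Lists of signaling and RNA processing had few genes 2-fold outside, and so did all genes together (2.18%). Of 18 genes of ERK pathway output none was outside (median -0.09), with DUSP6, a phosphatase of ERK, at 22.7 and 14.6 against 16.6 CPM and FOSL1 at 125 and 184 against 122 CPM. No immediate early gene was outside among 18, and no splicing factor among 50 (median -0.01, and 0.02 with library size alone). Of 31 genes of Integrator and pause control, 2 were higher and none lower, beside 0.957% and 1.22% of all genes. INTS10, an Integrator subunit, was at 30.5 and 30.6 CPM in the controls and 79.0 CPM in the library labelled knockdown 3, 2.59-fold higher (95% counting interval 2.44 to 2.75), with no gene within 20 kb. It stood at 67.1 to 75.2 CPM in control 3, knockdown 1 and knockdown 2, so the control pair was low against all 4, and edgeR's adjusted p was 0.341. NELFCD was the other and is described above.

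A few genes of further lists were outside both controls, where 0.957% of all genes were higher and 1.22% lower. Of 13 TGF-beta targets, LTBP2 and LTBP3, both latent TGF-beta binding proteins, were lower, LTBP3 at 44.4 and 31.8 against 10.8 CPM with its neighbour FAM89B at 4.33 and 12.9 against 33.9 CPM. The median of the 13 was -0.32, where control 2 minus control 1 had a median of -0.23. By any amount 5 were below both controls (38.5%, beside 30.5% of all genes). The median was 0.64 in control 3, -0.54 in knockdown 1 and -0.11 in knockdown 2. MCM5, a subunit of the replicative helicase, was the gene lower on a list of 35 for DNA replication, which does not hold ORC2 described above, at 191 and 224 against 85.5 CPM, and its neighbour sum differed by -1.09. TPI1 was the gene higher among 20 of glycolysis, at 537 and 407 against 1116 CPM, with its neighbour CDCA3 at 86.5 and 80.0 against 33.6 CPM. PSPH, which makes serine, was at 19.3 and 17.2 against 5.003 CPM among 30 genes of ATF4 and ER stress. BECN1, an autophagy factor, was at 27.1 and 16.5 against 66.2 CPM, and HOXA3 at 0.704 and 1.41 against 3.66 CPM. The neighbour sums of LTBP3, MCM5, TPI1, PSPH, BECN1 and HOXA3 did not stay outside both controls, with TPI1 at 0.78, PSPH at -0.17, BECN1 at 0.30 and HOXA3 at 0.41. HLA-B, which presents peptides, was at 13.1 and 40.9 against 1.60 CPM, where the controls differed by 1.60 on the log2 scale and reads of HLA genes are easily exchanged.

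None of 13 integrins and laminins, 12 YAP and TEAD targets, 6 metallothioneins, 18 NRF2 targets, 17 hypoxia targets, 22 genes of sterol synthesis, 13 of fatty acid synthesis, 18 p53 targets or 30 of mitosis was outside both controls. Over all genes 2.18% were outside, so finding none in lists this short says little about them. Medians of these lists lay between -0.15 for the metallothioneins and 0.10 for fatty acid synthesis. All 6 metallothioneins were below the controls' mean and 5 were below both controls (83.3%, beside 30.5% of all genes). The metallothionein median was 0.52 in control 3, -0.34 in knockdown 1 and -0.33 in knockdown 2. Of 17 cytokines and growth factors only LIF was outside both controls.

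Identity genes of the line stayed near the control pair. VIM, the mesenchymal filament protein, was at 7343 and 9972 CPM in the controls and 8560.5 CPM in the library labelled knockdown 3. ZEB1, a repressor of epithelial genes, was at 53.7 and 41.9 against 45.1 CPM, and the keratins KRT8 and KRT18 lay just below both controls, at 740.0 and 555 CPM. CDH1 and EPCAM, which epithelial cells carry, had 0 counts in all 3 libraries. None of 11 mesenchymal genes, 4 epithelial genes or 14 collagens at 1 CPM or more was outside. With 2.18% of all genes outside, that count alone says little about these short lists. Markers of leukocytes, acinar cells and HEK293 cells did not reach 1 CPM in these libraries, with summed levels of 0 to 0.739 CPM. Of the endothelial markers CDH5 did, at 2.96 and 2.31 against 3.64 CPM, while PECAM1 was at 0, and of the fibroblast markers COL3A1 did, at 11.1 and 12.3 against 14.3 CPM, while FAP and LUM were at 0.

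Across all genes edgeR's quasi-likelihood test called none of 16967 (0.0%), with 783 at an unadjusted p under 0.05 and a smallest adjusted p of 0.0726. The fit used the 6 libraries in 4 cells with 2 residual degrees of freedom, and took the library labelled knockdown 3, which has no replicate, to vary like the pairs of control 1 and 2 and knockdown 1 and 2. DESeq2 called 195 of 14006 genes with an adjusted p (1.39%), 54 higher and 141 lower, and 143 of the 294 genes outside both controls were among its calls. In counts simulated for this comparison edgeR found 62.5% of 112 genes given a log2 change of 2. For a change of 3 it found 90.9% of 88, and 4 of 15903 unchanged genes were called falsely. All simulated libraries started from the mean level of control 1 and control 2, with a spread set by level alone. Only genes above a minimum level were changed. The simulation thus lacks gene-specific spread and the differences of control 3, knockdown 1 and knockdown 2, so these shares do not give the power in the real data.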

How the data were processed

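RNA of MiaPaCa2-CasRx cells was sequenced from TruSeq libraries. The deposited values are whole-number counts per gene that the authors made with FastQC, STAR and StringTie; the sources used here do not give versions, genome build or annotation. All 6 sample columns of the 42540 rows were used, and 159 exact second copies were left out. Samples were grouped by their titles. Counts were scaled by TMM and tested with edgeR 4.0.16 (filterByExpr, quasi-likelihood F test, Benjamini-Hochberg at 0.05) in R 4.3.3, with DESeq2 1.42.0 as an alternative, other scalings, pseudocounts and filters, and each library left out. The test was checked on simulated counts. Neighbours within 20 kb came from RefSeq places of GRCh38.p14. Python 3.11.15 with pandas 2.3.3 was used for the rest. Named genes were those of PP2A, the 12 farthest above and 12 farthest below both controls with a symbol and at least 5 CPM in the library labelled knockdown 3 or in both controls, any edgeR call, and up to 4 outside members of each of 39 lists. The comparison, lists and genes were chosen with earlier results of these data known. A few withheld items are not reported here.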

Additional observations from a re-analysis of the deposited data

How the results depend on the processing

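The library labelled knockdown 3 shares no replicate number with control 1 or control 2. A replicate block for replicates 1 and 2 of both groups, added after the data were seen, left 1 residual degree of freedom, called 0 genes in edgeR (913 at an unadjusted p under 0.05) and gave PPP2R1A -0.15. Deviations of the same-numbered libraries correlated at 0.06 over 16967 genes. This value cannot show whether they also shared a week, a culture or a preparation. PPP2R1A stayed between -0.11 and -0.20 on the log2 scale and uncalled under every alternative run. With 1 control library left out, 410 to 463 genes were higher and 394 to 403 lower than the remaining control: 463 and 403 without control 1, 410 and 394 without control 2, which tests against 1 library in place of the range of 2. Counts summed with genes within 20 kb, added after the data were seen, kept 33 higher and 53 lower genes. DESeq2 size factors, library size alone, a pseudocount of 2 CPM, a filter at 5 CPM, no filter and sums over a locus gave 92 to 140 higher and 136 to 166 lower genes. edgeR called 1 gene, ADGRL1, higher with no filter on low counts (adjusted p = 0.0455), DESeq2 called 54 higher and 141 lower, and every other edgeR setting called none, with 0 calls in each fit that left out a library. With sums over a locus, 4 of the 75 named genes changed side: ARL2-SNX15 to -0.43, SNHG31 to -0.0687, MIR4683 to 0.31 and RIGI to 0.90. With neighbour sums 6 did: ARL2-SNX15 to -0.19, SNHG31 to -0.13, MIR4683 to 0.31, CHD8 to 0.26, RIGI to 0.37 and ISG15 to 0.23, and 21 more no longer stood outside both controls. The cause was not tested. Under scaling by library size alone the median over all fitted genes was 0.03. For 9 of 32 lists the shift of the median was large beside the spread of the controls, which does not place the median outside the controls. Among them ribosomal proteins went from 0.05 to 0.09, ERK pathway output from -0.09 to -0.06 and mitosis from -0.08 to -0.05. PP2A regulatory subunits went from 0.07 to 0.10 and PP2A regulators from 0.03 to 0.06. Genes under 5 CPM rest on few reads, and a library at 0 counts allows up to 3.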
